A study of Homo sapiens with 6 samples.

Results

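In A172 cells, 56 of 20514 transcript rows were at least 2-fold more abundant when an siRNA against Staufen1 was added to an siRNA against ADAR1, while the ADAR1 siRNA alone had left them near the control level. They were chosen by measured values: reads were divided by the library total to give CPM, a row's share of its library, and group means were taken with 0.1 CPM added. A row was kept when its mean in the combined knockdown was at least 2 CPM, when siADAR1 lay within 0.5 of siControl on the log2 scale in either direction, and when the combined knockdown exceeded siADAR1 by a log2 difference of at least 1. The rule therefore fixes the pattern itself, and the differences between groups below describe the members without testing them. Nearness to the control holds on library totals. TMM scaling instead sets the libraries on the assumption that most rows do not differ between them. With it, edgeR called 25 of the 56 rows lower with siADAR1 than with siControl (29.7% of all rows tested).

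A172 is an established human glioblastoma line. Each of 3 groups had 2 libraries, replicates a and b, named by what the cells were transfected with: siControl, siADAR1, or siADAR1 and siStaufen1, called the combined knockdown here. The treatment text, the same for every library, also describes a plasmid for HA-tagged STAU1 given on the day after the siRNA and leaves the Staufen1 siRNA unmentioned, so whether every group carried the plasmid is not known. Cells with the Staufen1 siRNA alone were not analysed here, so its effect is seen only on top of the ADAR1 siRNA. Nothing in the labels says that replicates a and b came from separate cultures, and the spread between them may be technical.

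ADAR1 converts adenosine to inosine in double-stranded RNA. Staufen1 binds double-stranded stretches of mRNA, often in the part after the stop codon, and recruits the helicase UPF1, which starts decay of that mRNA. This route is called Staufen1-mediated mRNA decay. Transcript abundance alone does not separate slower decay from more synthesis, and neither was measured.

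Library totals ran from 20291057 to 29508632 estimated reads. The table gives UCSC hg19 transcript IDs without gene symbols, and none of the 172 transcript IDs of the members was found among the synonyms that RefSeq lists for human genes. The members are therefore described by rank, with rank 1 the highest mean CPM in the combined knockdown, and 2 of them by the first ID of their row. The levels of ADAR and STAU1, which would check the group labels, and markers of glioblastoma cells were not analysed here for the same reason. CPM values are not divided by transcript length, so they compare a row between libraries and say little about molecules in one row against another.

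The members were a small part of the rows that stood higher in the combined knockdown. At the minimum level there were 11970 rows, of which 6045 lay within the siADAR1 limit and 250 reached the minimum rise over siADAR1. Of these 250 rows, 174 (69.6%) lay at or below a log2 difference of -0.5 between siADAR1 and siControl, 20 at or above 0.5, and the 56 members (22.4%) between these limits. Most large rises over siADAR1 were thus in rows that were lower with siADAR1 than with siControl, and the members lay beside that larger group. Over all 11970 rows the lower quartile of the siADAR1 difference was -0.11. Both differences use the siADAR1 mean, with opposite sign, so a low siADAR1 mean by itself moves a row toward the larger group. In the opposite direction, 95 rows with at least 2 CPM in siADAR1 lay within the siADAR1 limit and were at least 2-fold lower in the combined knockdown.

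**Figure D1:**
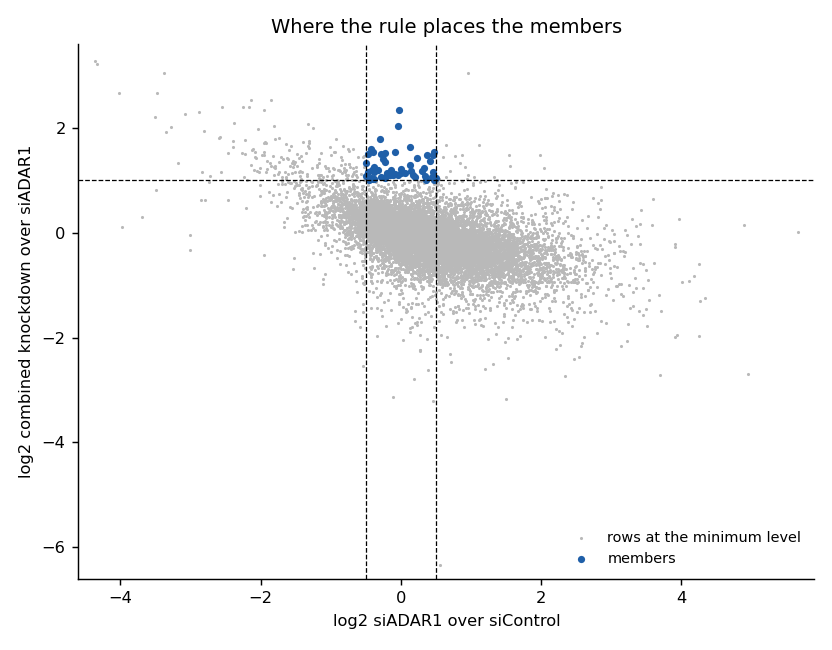
Each point is a transcript row at the minimum level, placed by its log2 difference of siADAR1 over siControl (horizontal) and of the combined knockdown over siADAR1 (vertical), from mean CPM plus 0.1. Blue points are the 56 members and dashed lines the limits of the rule at -0.5, 0.5 and 1. Both axes use the siADAR1 libraries, with opposite sign.

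Rows lay close on both sides of the minimum rise and of the lower siADAR1 limit, and were sparser at the upper siADAR1 limit. The smallest differences over siADAR1 among the members were 1.0001, 1.01 and 1.01 on the log2 scale, and the largest among rows just left out were 0.995, 0.985 and 0.981. Between 0.8 and 1 there were 48 rows that met the other limits, against 33 members between 1 and 1.2. At the siADAR1 limit, the members nearest the lower edge stood at -0.493, -0.493 and -0.468, and the nearest rows beyond it at -0.519, -0.519 and -0.520. At the upper edge the nearest members stood at 0.495, 0.475 and 0.467, and the nearest rows beyond it at 0.550, 0.599 and 0.643. A further 111 rows met both log2 limits but not the minimum level, the nearest of them at 1.99 CPM with the offset included. At the minimum rise and the lower siADAR1 limit, membership is a matter of small differences.

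Most members were of low to moderate abundance. Their mean level in the combined knockdown had a median of 8.31 CPM (quartiles 4.39 and 18.2, highest 474), against a median of 22.02 CPM over the 11970 rows at the minimum level. In the rule's units, 17 members lay between 2 and 5 CPM, 16 between 5 and 10, 18 between 10 and 50, and 5 above 50. A member had a median of 66.5 to 93 reads in a siControl library, 79 to 88.5 in a siADAR1 library and 198.5 to 229.5 in a combined knockdown library. Together the members held 1415 ± 59 CPM (SD, n = 2) in the combined knockdown, against 596 ± 44 CPM in siADAR1 and 577 ± 38 CPM in siControl. Without the member of rank 1 these sums were 940 ± 27 CPM in the combined knockdown, 365 ± 23 CPM in siADAR1 and 413 ± 23 CPM in siControl (SD, n = 2 each).

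**Figure D2:**
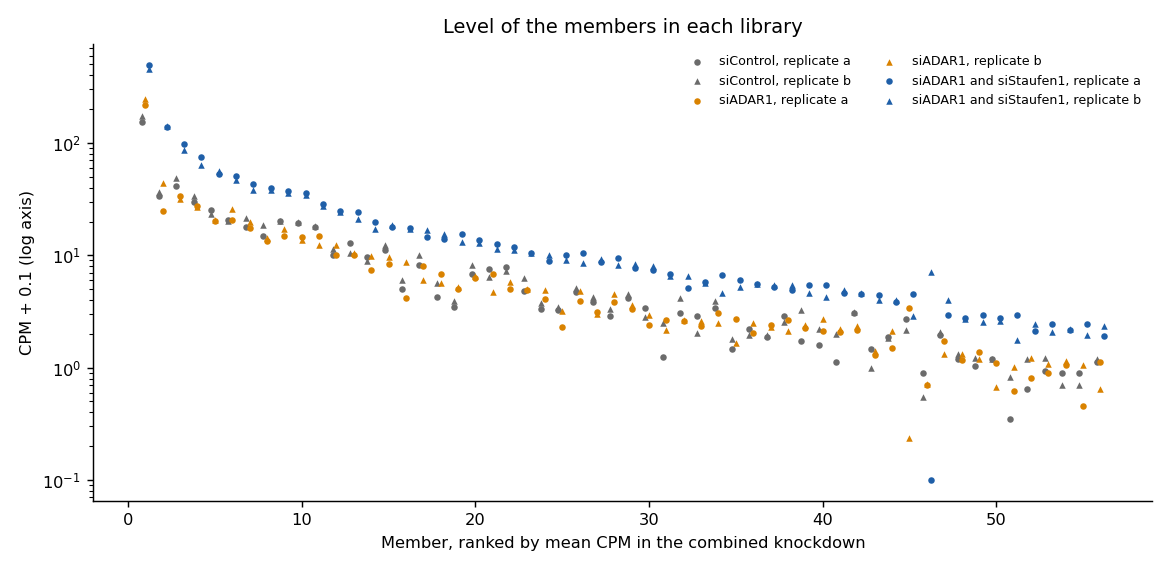
The 56 members are ranked along the horizontal axis by mean CPM in the combined knockdown, and the vertical log axis gives CPM plus 0.1 in each library. Circles are replicate a and triangles replicate b, with siControl in grey, siADAR1 in orange and the combined knockdown in blue. The blue points lie above the orange ones in 54 members, and ranks 45 and 46 hold the exceptions.

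The rise over siADAR1 was mostly little more than the minimum the rule asks for. Its median was 1.17 on the log2 scale (quartiles 1.09 and 1.41), a fold of 2.24. A fold under 2.5 was found in 38 members and a fold of 3 or more in 5. Against siControl the log2 difference of the combined knockdown ran from 0.56 to 2.32, with a median of 1.16. The rows within the siADAR1 limit as a whole had a median of -0.02 for the combined knockdown over siADAR1.

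The most abundant member was the row uc002yff.3, which holds 1 transcript. It stood at 154 and 174 CPM in the siControl libraries, at 217 and 245 CPM with siADAR1, and at 497 and 452 CPM in the combined knockdown. The 3 groups did not overlap, and siADAR1 already lay above siControl. With a log2 difference of 0.50 between siADAR1 and siControl (0.495 before rounding), uc002yff.3 was the member closest to the upper limit of the rule. By edgeR with TMM scaling, its log2 fold change was 1.15 (SE 0.077) against siADAR1, 1.35 (SE 0.078) against siControl, and 0.20 (SE 0.077) for siADAR1 against siControl. Leaving out siControl replicate a or siADAR1 replicate b lowered this last value to 0.11 and 0.10, and leaving out either of these, or either combined knockdown library, ended its call at an adjusted p of 0.05.

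The largest rise among members of at least 10 CPM was that of uc002zyz.4, a row of 2 transcripts and rank 2 by level. It stood at 33.3 and 36.9 CPM in siControl, at 24.7 and 43.8 CPM with siADAR1, and at 139 and 141 CPM in the combined knockdown. The combined knockdown libraries were close together and far above the other 4, whereas the siADAR1 libraries lay on either side of siControl. The edgeR log2 fold change of uc002zyz.4 was 2.14 (SE 0.18) against siADAR1 and 1.81 (SE 0.18) against siControl. For siADAR1 against siControl it was -0.33 (SE 0.19), and it moved to 0.02 without siADAR1 replicate a and to -0.81, past the threshold, without siADAR1 replicate b.

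The members of ranks 3 to 10 had 35.0 to 92.0 CPM in the combined knockdown, and in most of them siADAR1 lay below siControl. Rank 3, a row of 7 transcripts, stood at 41.4 and 48.8 CPM in siControl, 33.4 and 31.8 CPM with siADAR1, and 97.7 and 86.3 CPM in the combined knockdown. Rank 4, with 2 transcripts, stood at 29.7 and 34.0, 27.5 and 26.8, and 75.5 and 64.0 CPM in the same order. Rank 5, with 3 transcripts, stood at 25.3 and 23.4, then 20.2 and 20.7, then 52.7 and 56.4 CPM. In each of these rows both siADAR1 libraries lay below both siControl libraries. The same held for ranks 8, 9 and 10. Rank 8, a row of 1 transcript, had 14.9 and 18.4 CPM in siControl, 13.2 and 14.1 CPM with siADAR1, and 39.3 and 38.1 CPM in the combined knockdown. Rank 10, of 2 transcripts, had 19.5 and 19.8, 14.4 and 13.5, and 35.6 and 34.4 CPM, and was among the members nearest the lower siADAR1 limit. Rank 6, of 1 transcript, had siADAR1 slightly above siControl, at 20.6 and 25.9 against 20.4 and 19.97 CPM, before 51.1 and 46.7 CPM in the combined knockdown. Rank 7, also of 1 transcript, overlapped between siControl and siADAR1, at 17.8 and 21.5 against 17.5 and 19.8 CPM, and stood at 43.2 and 38.3 CPM in the combined knockdown.

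Whether the members were near siControl in siADAR1 depended on how the libraries were scaled. On library totals, 36 of the 56 members (64.3%) had siADAR1 below siControl, with a median log2 difference of -0.13, where the 6045 rows within the same limit had a median of 0.06 and 43.4% below. Both siADAR1 libraries lay below both siControl libraries in 21 members (24.6% of the rows at the minimum level) and above both in 9 (61.5% of those rows), and the 2 groups overlapped in 26. The TMM factors averaged 0.894 in siControl, 1.10 in siADAR1 and 1.02 with both siRNAs. With them the members' siADAR1 difference moved by a median of -0.29, to a median of -0.41 and a range of -0.79 to 0.23, and 23 members lay outside the rule's limit on the low side.

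By edgeR's quasi-likelihood test with TMM scaling and a Benjamini-Hochberg adjusted p of 0.05, siADAR1 was lower than siControl in 25 of the 56 members and higher in 1. Over the 14711 rows tested, 29.7% were called lower and 32.9% higher. The 25 included ranks 3, 4, 5, 7, 8, 9 and 10, and the 1 member called higher was uc002yff.3. Scaled to library totals instead, 9 members were called lower (16.4% of all rows tested) and 3 higher (48.2%). With TMM and a change beyond 1.5-fold required, 2 were called lower (8.88%) and 0 higher (15.6%). The rule limits this contrast, so the shares of all rows stand beside the counts for scale, and nothing is read from the comparison. The description of these rows as higher only after the Staufen1 siRNA rests on library totals. Part of them were called lower with siADAR1 under TMM.

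**Figure D3:**
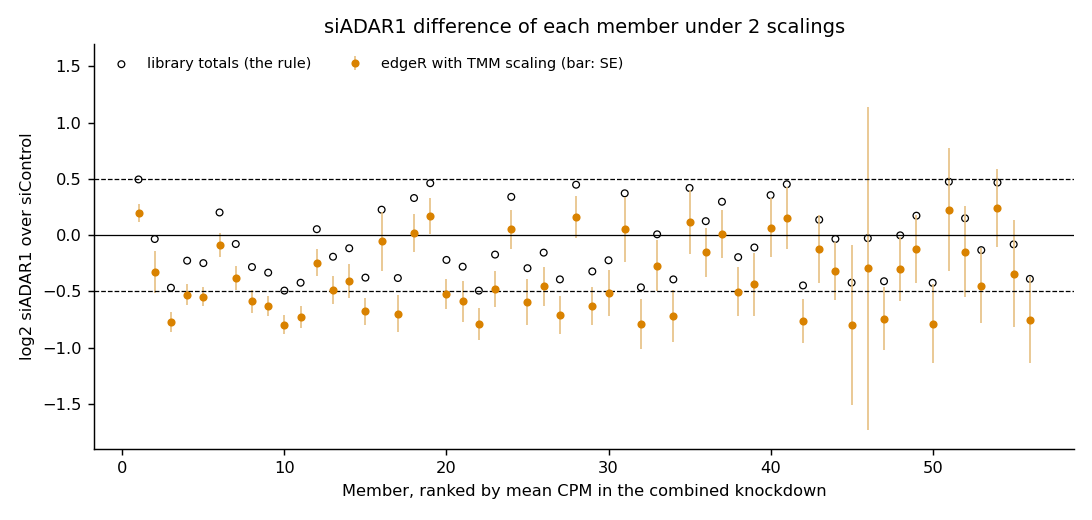
For each member, ranked by mean CPM in the combined knockdown, the log2 difference of siADAR1 over siControl is given on library totals (open circles) and as edgeR's log2 fold change with TMM scaling (orange, bar: standard error). Dashed lines mark the rule's limits at -0.5 and 0.5. The open circles lie within the limits by choice, and 44 of the 56 members lie below 0 on means scaled with TMM against 36 on totals.

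In the combined knockdown nearly all members stood above both other groups. By the same edgeR test, 54 of the 56 were higher than siADAR1 (21.7% of all rows tested) and 51 higher than siControl (28.7% of all rows tested). Against either group 0 members were called lower, where 21.5% and 25.8% of all rows were. The rule used both contrasts, so nothing is read from these shares. The members' median edgeR log2 fold change was 1.32 against siADAR1, with standard errors of 0.077 to 1.07, and 1.003 against siControl, with a range of 0.40 to 2.38. The comparisons share libraries and are not independent of each other. When a change beyond 1.5-fold was required, 49 members were called higher than siADAR1 (3.05% of all rows tested) and 27 higher than siControl (10.5%), with 0 lower (3.88% and 4.83% of all rows).

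Replicates agreed on the direction in nearly all members, and less well on the size. The rule used the means of these same libraries, so agreement in direction is in large part set by the choice. Both combined knockdown libraries lay above both siADAR1 libraries in 54 members (29.5% of the rows at the minimum level) and above both siControl libraries in 55 (55.8% of those rows). The lower combined knockdown library was at least 2-fold above the higher siADAR1 library in 23 members (1.35% of those rows) and at least 1.5-fold above it in 53 (4.05%). Taking each replicate letter alone, the log2 difference over siADAR1 was at least 1 in 47 members in the a libraries and in 36 in the b libraries, with medians of 1.29 and 1.14. All 3 limits were met in both letters by 16 members, in exactly 1 letter by 31 and in neither by 9.

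The gap between replicates was set beside that of other rows with the same mean level in the same group, in level classes chosen after the values were seen. Between 10 and 50 CPM in siADAR1, the median absolute log2 ratio of replicate a to b was 0.14 in 12 members and 0.079 in the other rows. Between 5 and 10 CPM it was 0.27 in 9 members against 0.13, between 2 and 5 CPM 0.25 in 20 members against 0.18, and between 1 and 2 CPM 0.21 in 7 members against 0.28. The members' gap in siADAR1 was thus the wider one between 2 and 50 CPM and the narrower one between 1 and 2 CPM. In the combined knockdown it was 0.20 against 0.19 between 2 and 5 CPM, 0.16 against 0.13 between 5 and 10 CPM, and 0.092 against 0.080 between 10 and 50 CPM. In siControl the members had the wider gap between 5 and 50 CPM and the narrower one between 1 and 5 CPM. The rule used these levels and no test was run on the gaps. Replicate b was the higher siADAR1 library in 38 members and the higher siControl library in 39, and the higher combined knockdown library in 20. Over all rows at the minimum level these shares were 49.4%, 51.3% and 45.9%. Whether this spread has a part in the membership was not tested. The number of rows that met the rule was 42 without siADAR1 replicate a and 67 without siADAR1 replicate b.

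In 4 members the replicates of siADAR1 or of the combined knockdown differed more than 2-fold. In siADAR1 these were 3 members (5.36%, against 0.167% of the rows at the minimum level), and in the combined knockdown 1 (1.79%, against 0.159%). The siControl replicates of 2 further members, ranks 31 and 51, also differed more than 2-fold (3.57%, against 0.919% of those rows). Rank 31 had 23 and 59 reads in siControl, and rank 51 had 5 and 18. Rank 46, a row of 1 transcript with the largest log2 difference over siADAR1 of all members (2.35), had 0 reads in combined knockdown replicate a and 196 reads in replicate b, against 11 to 18 reads in the other 4 libraries. Its mean therefore rests on a single library. By counting error alone, the 0 allows a level of up to 0.122 CPM, the worth of 3 reads. The counts are estimates, and whether reads of this row went to another row in replicate a was not tested. Rank 45, of 2 transcripts, had 83 and 4 reads in siADAR1, against 53 and 51 in siControl and 108 and 79 in the combined knockdown, so that its low siADAR1 mean comes from replicate b alone. These 2 rows were the members not called against siADAR1. Rank 16 had 103 and 254 reads in siADAR1 and 430 and 478 in the combined knockdown. Rank 55 had 9 and 28 reads in siADAR1 and 57 and 52 in the combined knockdown. Without ranks 16, 45, 46 and 55 the other 52 members had a median siADAR1 difference of -0.14, close to the -0.13 of all 56.

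Libraries that had no part in a choice were then used to see how much of the rise was found again. Applied to the a libraries alone, the rule chose 69 rows, 38 of them members, with a median log2 difference over siADAR1 of 1.28. In the b libraries the same 69 rows had a median of 0.95, all 69 were above siADAR1, and 26 (37.7%) were at least 2-fold above it, against 2.11% of all rows at the minimum level there. Applied to the b libraries alone, the rule chose 41 rows, 25 of them members, with a median of 1.16. In the a libraries they had a median of 1.12, 40 were above siADAR1, and 25 (61.0%) were at least 2-fold above it, against 2.54% of all rows at that level. The exception was the row of rank 46, at -2.80.

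The limit on siADAR1 held less often in the libraries not used for the choice. Of the 69 rows chosen in the a libraries, 44 lay within 0.5 of siControl in the b libraries, 11 at or below -0.5 and 14 at or above 0.5. Of the 41 chosen in the b libraries, 27 lay within the limit in the a libraries, 4 below it and 10 above it. All limits were met in both letters by 16 rows, which are the 16 members counted above. In the libraries not used, nearly every chosen row was above siADAR1, and the full pattern was met in far fewer. On the means of both letters, 60.95% of all rows at the minimum level lay below siADAR1 in the combined knockdown. The spread between replicates a and b may be technical, so these counts cannot show whether the rise would recur in separate cultures.

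**Figure D4:**
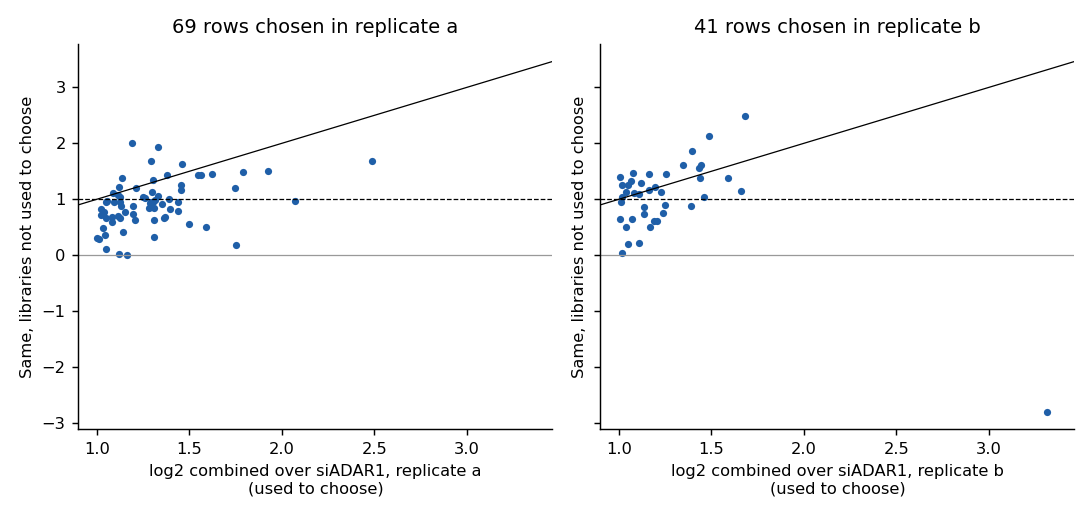
Each point is a row chosen in the libraries of 1 replicate letter, with its log2 difference of the combined knockdown over siADAR1 in those libraries (horizontal) and in the libraries of the other letter (vertical). The solid line marks equal values and the dashed line 1. Points chosen in replicate a lie mostly below the solid line, with a median of 0.95 against 1.28, and the single point at -2.80 is rank 46.

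A subset held to stricter limits is made of the 12 members that also met the rule with TMM scaling and whose lower combined knockdown library was at least 2-fold above the higher siADAR1 library. They ran from 2.66 to 140 CPM in the combined knockdown and from 1.15 to 34.3 CPM with siADAR1, and siControl and siADAR1 libraries overlapped in 7 of them. This subset was formed after the values were seen and has no test. Of its rows, ranks 13 and 23 were still called lower with siADAR1 than with siControl by edgeR with TMM scaling, at log2 fold changes of -0.48 each. Besides uc002zyz.4, its more abundant rows were ranks 13, 18 and 19. Rank 13, of 1 transcript, stood at 12.8 and 10.4 CPM in siControl, 9.94 and 10.3 CPM with siADAR1, and 24.0 and 21.0 CPM in the combined knockdown. Rank 18, also of 1 transcript, stood at 4.19 and 5.54, 6.72 and 5.56, and 13.9 and 15.4 CPM. Rank 19, of 2 transcripts, stood at 3.40 and 3.84, 4.93 and 5.12, and 15.3 and 13.2 CPM. In rank 19 siADAR1 was above siControl in both libraries, with a log2 difference of 0.46 on totals that shrank to 0.17 with TMM.

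On library totals, nearly equal levels in siControl and siADAR1 were found in rank 48, a row of 3 transcripts. It had 1.08 and 1.21 CPM in siControl, 1.07 and 1.22 CPM with siADAR1, and 2.69 and 2.63 CPM in the combined knockdown. Rank 36, also of 3 transcripts, stood at 2.12 and 1.86, 1.95 and 2.41, and 5.51 and 5.50 CPM. In both rows the siControl and siADAR1 libraries overlapped, with the combined knockdown libraries well above. Rank 33, of 5 transcripts, was similar, at 2.81 and 1.94, 2.27 and 2.51, and 5.71 and 5.57 CPM. With TMM scaling the log2 difference of siADAR1 over siControl was -0.28 in rank 48, -0.16 in rank 36 and -0.28 in rank 33.

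The rule did not use the number of transcripts per row. The members held 172 transcripts, with a median of 2 per row, against a median of 3 in the rows at the minimum level and 2 in all 20514 rows. A single transcript was listed in 23 of the 56 members, 41.1% (95% Clopper-Pearson interval 28.1% to 55.0%, counting error only), against 19.8% of the rows at the minimum level. Over all 20514 rows, low ones included, the share was 32.1%, which lies within that interval. The share was 23.6% in the 174 rows that reached the same rise over siADAR1 from a lower siADAR1 level. Among members of 2 to 10 CPM it was 45.5% (95% interval 28.1% to 63.6%), against 25.96% of all rows of that level. Among the 23 members of 10 CPM or more it was 34.8% (16.4% to 57.3%), an interval that includes the 17.1% of all rows there. No test was run on these shares, since the rows were chosen on their values. The intervals treat rows as independent draws and do not stand in for a test.

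**Figure D5:**
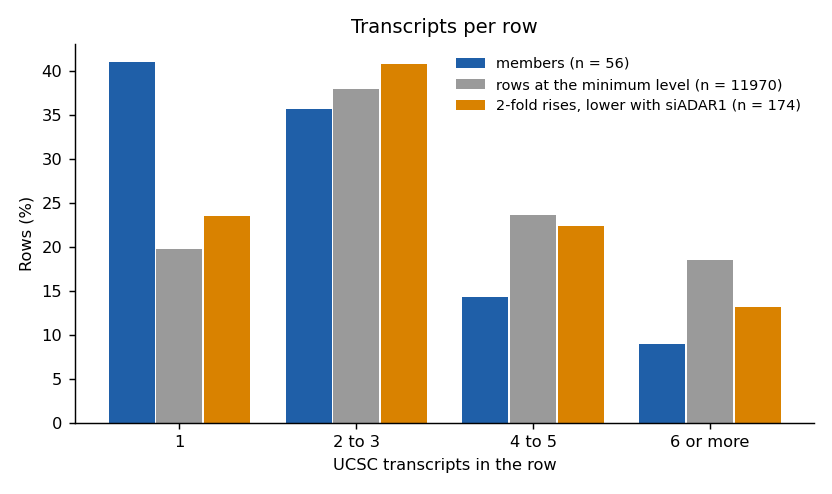
Bars give the percent of rows with 1, 2 to 3, 4 to 5, or 6 or more UCSC transcripts, for the 56 members (blue), the 11970 rows at the minimum level (grey) and the 174 rows with a like rise that were lower with siADAR1 (orange). Rows with 1 transcript make up 41.1% of the members, against 19.8% and 23.6%.

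There were 20 members with 2 to 3 transcripts, 8 with 4 to 5, and 5 (8.93%) with 6 or more, against 18.6% of the rows at the minimum level and 14.1% of all rows. The row of rank 39 stood apart with 34 transcripts, a number reached or exceeded by 7 of the 11970 rows. It had 33 and 79 reads in siControl, 54 and 68 in siADAR1, and 132 and 127 in the combined knockdown, so its siControl libraries differed by more than its siADAR1 libraries. Single-transcript members had a median of 6.60 CPM in the combined knockdown and a median log2 difference over siADAR1 of 1.25, and the other members 9.40 CPM and 1.15. Of the 9 members with a log2 difference of 1.5 or more, 7 were rows of 1 transcript, rank 46 with its single high library among them. These 7 ran from 2.09 to 9.43 CPM in the combined knockdown, and 25.96% of all rows of 2 to 10 CPM hold 1 transcript. Ranks 46, 50, 51 and 55 had 9 to 28 reads in each siADAR1 library. Whether the large rises go with 1 transcript or with low counts was not tested.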

How the data were processed

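RNA-seq of 6 A172 libraries was used. Per the labels' protocols, a miRNeasy kit served for the RNA and Lexogen's SENSE mRNA kit (V2) for the libraries. The authors deposited estimated counts per row of UCSC transcripts, and every value is whole. RSEM 1.2.3, edgeR and hg19 are named in the submitters' processing notes without their roles. The sources used here give no aligner, no strand setting and no word on rounding. Rows of antisense or near-identical genes are therefore uncertain, since their reads may be shared out between rows.

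The rule was applied to counts divided by library totals. All rows were then fitted in 1 edgeR 4.0.16 model (R 4.3.3) with a mean per group, TMM scaling and filterByExpr (10 reads, total 15), which left 14711 rows, all 56 members among them. The quasi-likelihood F test was two-sided, with Benjamini-Hochberg adjustment over all rows and a threshold of 0.05. Standard errors come from its F statistic. With 2 libraries against 2, an exact two-sided permutation test cannot go below p = 0.333, so none was run. DESeq2 1.42.0 and limma 3.58.1 served as alternatives, and Python 3.11.15 for the rule and plots. Depth sets counting error only.

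The members, the gene lists and the alternatives were chosen with earlier results of these data known. Members printed by ID are the most abundant in the combined knockdown and the largest rise among those of at least 10 CPM. Others are given by rank, and ranks beyond 10 were picked after their values were seen. Gene lists and marker lists were not counted, because the IDs are not paired with symbols, and no sequence is printed for the same reason.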

Additional observations from a re-analysis of the deposited data

How the results depend on the processing

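Of 191 alternative values computed, 151 were classed as unchanged. For counts of rows or calls this meant a ratio of at most 1.5 to the main value, even where other rows were chosen. For fold changes of single rows it meant the same direction and side of the threshold. For medians and shares it meant a move within an allowed spread or interval. The number of rows that met the rule was 34 with an offset of 1 CPM, 25 with a siADAR1 limit of 0.25, 9 with a minimum log2 rise of 1.5, and 23 when every combined knockdown library had to be at least 2-fold above every siADAR1 library. These limits are stricter by construction, except for the offset, which shrinks the differences of low rows. TMM scaling chose 62 rows, 33 of them members, and DESeq2 size factors 59, of which 30 were members, so counts of similar size hide a change of rows. The median siADAR1 difference of the rows chosen with TMM, measured on totals, turned to 0.21, since TMM places every siADAR1 difference lower by about 0.29 and so selects rows that are higher on totals. Other choices of rows moved the median siADAR1 difference from -0.13. It was -0.15 with an offset of 1 CPM, -0.19 at 5 CPM or more and -0.082 at a log2 rise of 1.5. Rows chosen in the a libraries alone gave -0.034, and in the b libraries alone -0.0018. Without rows whose siADAR1 or combined knockdown replicates differed more than 2-fold it was -0.14. The median rise over siADAR1 was 1.42 with an offset of 1 CPM and 1.59 with a minimum of 1.5. Over siControl it was 1.35 with TMM and 1.498 with that minimum. Leaving out each library in turn gave 42 to 67 rows, with 31 to 50 of the members among them. Alternatives chosen after seeing the data left 53 members with at least 50 reads in each combined knockdown library and 52 without rows whose replicates disagree.

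Rows of 1 transcript made up 77.8% of the 9 rows with a log2 rise of 1.5 or more, and 31.7% to 52.9% under the other choices. With glmTreat at 1.5-fold, 27 members were called higher than siControl in the combined knockdown and 2 lower with siADAR1. With library totals 9 were called lower with siADAR1. The 1 member called higher with siADAR1 became 3 with library totals. It became 0 with DESeq2 size factors, the DESeq2 test, glmTreat or only the 4 libraries compared. Over all rows, the same fits in this order called 7095, 4594, 3986 and 2296 of 14711 higher, and 4665 of 14465. Members called with a library left out are not counted here, since the lone library of a group borrows its spread from the rest. For siADAR1 against siControl, uc002zyz.4 ranged from -0.81 to 0.0226 when a library was left out, and its siADAR1 libraries stood at 24.7 and 43.8 CPM.

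With the replicate block, 55 members were called higher than siADAR1, 50 higher than siControl and 26 lower with siADAR1. Of all 14711 rows tested, 3265, 4227 and 4378 were called in the same order. The rule used these contrasts, so nothing is read from the counts. The block also brought uc002zyz.4 past the threshold for siADAR1 against siControl, at -0.35. The a and b deviations of different groups correlated by 0.051, 0.021 and 0.0060 across rows, too little to treat same-lettered libraries as pairs.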
